A study of Homo sapiens with 2 samples.

Results

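The genes of the RNA polymerase II transcription machinery were examined for NUDT21 on chromatin. The set held 57 genes given by name, out of 20033 protein-coding genes of GENCODE 44, and the rule that chose them uses names and no measured value. It comprised 12 subunits of RNA polymerase II (POLR2A to POLR2L), 28 Mediator genes (27 MED genes and CDK8) and 17 genes of transcription elongation and its kinases. Cells were from J.gamma1, a line of T-cell acute lymphoblastic leukemia (T-ALL) that derives from Jurkat and lacks a phospholipase C isoform, in 2 biological replicates. Cut &Tag was used, a method in which an antibody, here against NUDT21, tethers a transposase and the fragments that it releases are sequenced. Neither replicate was described as treated or knocked down. They formed 1 group in 1 cell line, and no sample without the antibody or without NUDT21 was analysed here, so every comparison below is between genes.

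The list of replicate 1 held 92722 peaks on the main chromosomes and that of replicate 2 held 66671. Read totals are unknown. The fragments at a peak summit, recovered from the deposited values, had a median of 30 in replicate 1 and 20 in replicate 2. A peak was counted as a promoter peak of a gene when it came within 3000 bp of any of its annotated starts. A gene with such a peak is called occupied. The strength of a peak is given as its fold enrichment at the summit over the local control level, a ratio from the authors' peak caller (the pileup of replicate 1 was scaled, as MACS does against a control library of another depth, but none is described, so the control level may be that of a control library or of the sample itself), and as its percentile, the share of peaks of the same replicate with a lower fold. Promoter peaks in both replicates were found at 8 of 10 T-lineage, 4 of 5 B-lineage and 4 of 5 myeloid marker genes, beside 57.0% of all protein-coding genes. The presence of a peak therefore did not tell the labelled cell type from other blood cells. Their strength differed, with median percentiles in replicates 1 and 2 of 88.3 and 93.2 for the T lineage. The B lineage had 78.0 and 69.7 and the myeloid genes 65.2 and 69.5, over at most 8 genes in each list.

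NUDT21 is the smaller subunit of cleavage factor Im. It binds UGUA in nascent pre-mRNA and so takes part in the choice of the polyadenylation site. RNA polymerase II transcribes the protein-coding genes. Mediator is a large complex that bridges activators and the polymerase, and is built of head, middle and tail parts around the scaffold MED14, with a kinase module that can dissociate. Soon after the start the polymerase is held by DSIF and NELF until the kinase P-TEFb (CDK9 with a T-type cyclin) releases it. P-TEFb itself is stored in an inactive form on the 7SK RNA with HEXIM1 and LARP7. The PAF1 complex, SUPT6H and ELL then travel with the elongating enzyme.

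The sequence before the start is shown for 6 genes, to set promoters with strong peaks beside promoters with weak ones. POLR2A, CTR9 and MED11 had summits within 200 bp of the start in both replicates and ranked high, PAF1 shares its peak with the neighbour MED29, and MED4 and CCNH had a weak peak in replicate 1 and none in replicate 2. Sequences are from hg38, 5′ to 3′ on the strand of the gene, and end just before its start. POLR2A is chr17:7484116-7484365 (plus strand), CTR9 is chr11:10750996-10751245 (plus), MED11 is chr17:4731178-4731427 (plus), MED4 is chr13:48095132-48095354 (minus) and CCNH is chr5:87412931-87413180 (minus). PAF1 is chr19:39391155-39391302 (minus), the whole stretch between the outermost starts of PAF1 and MED29. Capitals mark the GC box GGGCGG that SP factors read, the ETS core word CCGGAAG, and TGTA, the DNA form of UGUA, each on either strand.
POLR2A: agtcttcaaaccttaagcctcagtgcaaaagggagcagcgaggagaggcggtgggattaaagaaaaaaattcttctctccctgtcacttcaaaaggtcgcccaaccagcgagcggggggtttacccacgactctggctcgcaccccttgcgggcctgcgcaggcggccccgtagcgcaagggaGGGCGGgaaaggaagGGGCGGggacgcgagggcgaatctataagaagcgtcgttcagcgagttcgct
CTR9: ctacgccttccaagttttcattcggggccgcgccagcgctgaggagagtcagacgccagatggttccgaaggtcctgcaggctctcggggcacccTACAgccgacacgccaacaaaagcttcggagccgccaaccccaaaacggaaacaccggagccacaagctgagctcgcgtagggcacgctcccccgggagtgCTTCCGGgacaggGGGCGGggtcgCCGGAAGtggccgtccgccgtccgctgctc
MED11: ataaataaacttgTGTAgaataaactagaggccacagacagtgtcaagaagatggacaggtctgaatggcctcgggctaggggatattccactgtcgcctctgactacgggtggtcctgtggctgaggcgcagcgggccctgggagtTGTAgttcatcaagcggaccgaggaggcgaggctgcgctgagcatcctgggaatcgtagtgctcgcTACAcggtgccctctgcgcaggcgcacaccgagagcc
PAF1: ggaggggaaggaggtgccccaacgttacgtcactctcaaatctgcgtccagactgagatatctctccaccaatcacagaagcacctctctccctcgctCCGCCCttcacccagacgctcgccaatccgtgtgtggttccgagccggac
MED4: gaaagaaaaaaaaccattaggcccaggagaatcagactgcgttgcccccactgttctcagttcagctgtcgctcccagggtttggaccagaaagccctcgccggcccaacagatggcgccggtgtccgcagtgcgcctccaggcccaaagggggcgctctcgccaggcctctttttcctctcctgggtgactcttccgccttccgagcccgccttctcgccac
CCNH: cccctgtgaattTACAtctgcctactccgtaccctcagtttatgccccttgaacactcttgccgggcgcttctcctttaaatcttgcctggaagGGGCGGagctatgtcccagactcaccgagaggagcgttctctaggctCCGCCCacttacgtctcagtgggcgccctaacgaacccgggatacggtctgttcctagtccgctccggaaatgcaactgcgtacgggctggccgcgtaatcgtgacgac
The stretch of POLR2A held 2 GC boxes and that of CTR9 held 4 marked words of all kinds. MED11 held 3 copies of TGTA before its start, PAF1 1 GC box, CCNH 3 marked words and MED4 none. Weak and strong promoters both held GC boxes.

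NUDT21 peaks lay at the promoters of nearly all of these genes. In replicate 1, 56 of 57 genes had a promoter peak (98.2%), beside 69.8% of all protein-coding genes. In replicate 2, 48 of 57 had one (84.2%), beside 57.9%. The same 48 genes were those with a promoter peak in both (84.2%, 95% Wilson interval 72.6 to 91.5%, counting error only), beside 57.0% of all protein-coding genes. Since the share of genes with a peak rises with the GC content of the promoter, each gene was also set beside protein-coding genes of like GC content within 500 bp of its canonical start, of which 62.4% had a peak in both. The difference was 21.8 percentage points for both replicates together, 22.6 in replicate 1 and 20.9 in replicate 2 (SD 1.19, n = 2). Genes are not replicates and the design has 1 group, so no test was made.

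Where these genes had a peak, it was often among the strongest of the library. The strongest promoter peak of the 56 genes of replicate 1 had a median percentile of 90.4, beside 80.8 for genes of like GC content with a peak. In replicate 2 the 48 genes had a median of 92.9, beside 76.7. The difference was 9.61 and 16.2 points (mean 12.9, SD 4.68, n = 2). In replicate 1, 28 of 57 genes had a promoter peak in the top 10% of the list (49.1%), beside 26.5% of all protein-coding genes. In replicate 2 there were 27 (47.4%), beside 18.9%. The mean difference of 12.9 points was 5.90 without the genes of chromosomes 17 and 19, 8.15 with peaks ranked by −log10 p, 20.1 with only the 10000 peaks of lowest p in each list, and 22.4 with the peak nearest the canonical start. With those 10000 peaks, 30 of the 57 genes had a peak in both replicates. That share was 26.7 percentage points above the share of genes of like GC content at the same cut.

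**Figure D1:**
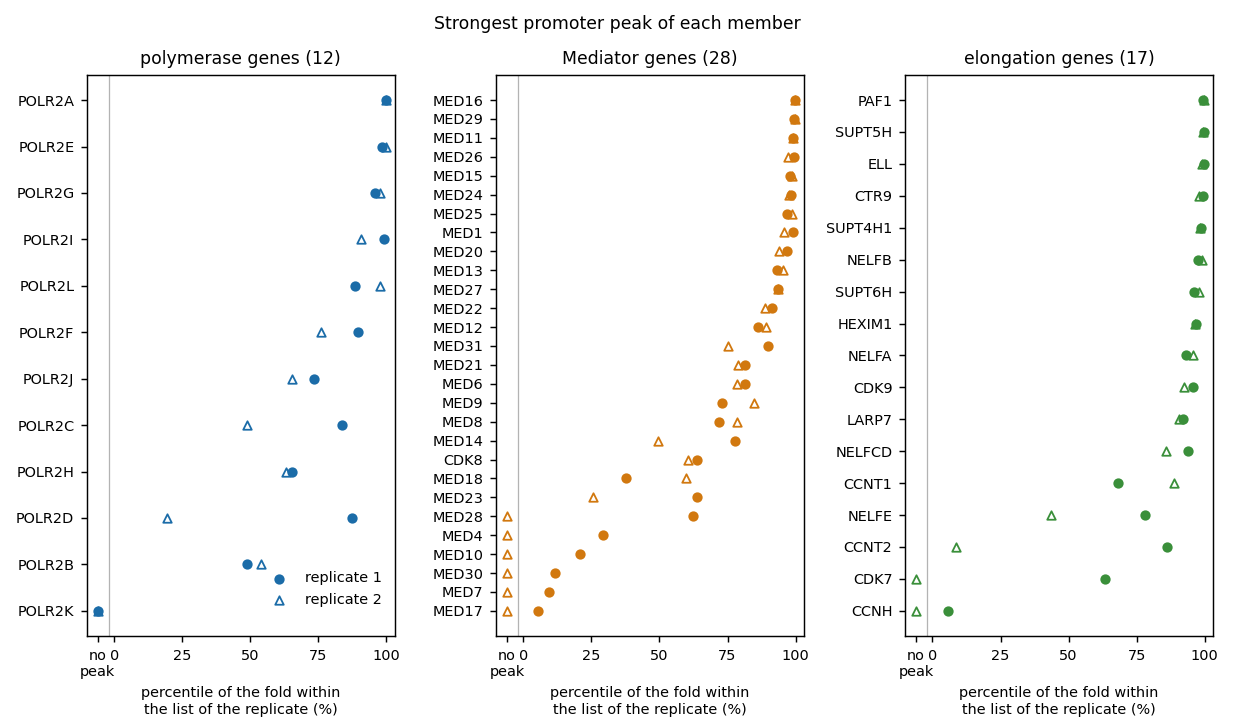
Percentile of the fold of the strongest promoter peak within the list of its replicate (x axis, %), for each of the 57 genes (y axis) in 3 panels by group. Filled circles are replicate 1 and open triangles replicate 2, and marks left of the grey line have no promoter peak. The strongest genes of each group lie near 100 in both replicates, and the 8 genes with a peak in replicate 1 alone are Mediator or elongation genes.

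Of the polymerase genes, 11 of 12 had a promoter peak in both replicates (91.7%, beside 61.2% of genes of like GC content). POLR2A, which encodes the largest, catalytic subunit with the C-terminal repeat domain, had the highest fold of the group, 18.4 in replicate 1 and 18.9 in replicate 2. Its summits lay 113 bp before the canonical start and 37 bp after it, with 119 and 60 fragments over control levels of 5.0006 and 2.2279. The peak also came within 3000 bp of starts of SLC35G6 and ZBTB4, so it cannot be given to POLR2A alone. Here and below, a peak is said to reach another gene when it came within 3000 bp of any of its annotated starts. It need not overlap that start. POLR2A had 7 and 6 promoter peaks in all, at several annotated starts along the gene.

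The polymerase genes spread widely. POLR2E, a subunit shared by every nuclear RNA polymerase, had folds of 11.4 and 16.5 (percentiles 98.4 and 99.8). Those POLR2E peaks were different sites, with summits 2775 and 244 bp before the start. POLR2G, part of the stalk, had 8.61 and 9.39 (95.9 and 97.6), with both summits within 500 bp of the start. POLR2I had 13.7 and 6.82 (99.2 and 90.7) in a peak that also reached OVOL3 and TBCB. Toward the low end stood POLR2B, the second-largest subunit, which forms the catalytic centre together with POLR2A, at 3.92 and 4.34 (48.9 and 53.8). These POLR2B peaks were different sites, with summits 928 and 2382 bp before the start, and both reached NOA1. The site 928 bp before the start had 3.25 (17.9) in replicate 2. POLR2H, another shared subunit, had 4.56 and 4.68 (65.3 and 63.0), and POLR2J, an assembly subunit, had 4.95 and 4.77 (73.3 and 65.2). POLR2D, the partner of POLR2G in the stalk, had 6.20 in replicate 1 but 3.30 in replicate 2, so its percentile went from 87.2 to 19.3, and the strongest peaks of the replicates were not the same site. Thus the partners in the catalytic centre and in the stalk each lay far apart in rank in replicate 2.

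The remaining polymerase genes lay between these. POLR2C, another assembly subunit, had percentiles of 83.8 and 48.7. The shared subunit POLR2F had 89.7 and 75.9, though its strongest summit of replicate 1 lay 32865 bp into the locus near SOX10. The shared subunit POLR2L had 88.3 and 97.5. Its only peak in replicate 1 was 36406 bp wide and reached CD151, CRACR2B, PNPLA2 and TSPAN4, so the summit, 23239 bp after the start, was not that of POLR2L. The exception of the group was POLR2K, a small shared subunit that binds zinc, with no promoter, gene body or gene end peak in either replicate. Its promoter had a GC content of 45.6%, the lowest of the 57. By their use, 7 of 7 subunits particular to polymerase II and 4 of 5 shared ones had peaks in both replicates.

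Mediator had the lowest share of the groups, 22 of 28 genes occupied in both replicates (78.6%, beside 60.9% of genes of like GC content), although all 28 had one in replicate 1. With the 10000 peaks of lowest p in each list, 10 of 28 had a peak in both, as did 8 of 12 polymerase and 12 of 17 elongation genes. At this cut far fewer genes of any kind have a peak. The share of genes of like GC content was not given by group there. The tail subunit MED16 had folds of 19.4 and 15.0, the highest of all 57 genes in replicate 1. Its summits lay 20236 and 20938 bp after the canonical start, at other annotated starts. The replicate 1 peak that covered the canonical start of MED16 had a fold of 6.66, at a summit 3150 bp after that start. In replicate 2 a peak at the same place had 9.91, with its summit 4275 bp after the start. It ended short of the start, so no peak of replicate 2 lay over it. MED29, which lies between head and tail, had 15.5 and 14.5, in the peak it shares with PAF1 (104 and 58 fragments). The head subunit MED11 had 13.5 and 11.1, with summits 106 and 181 bp after the start and 108 and 78 fragments. MED1, the subunit that contacts nuclear receptors, had 13.1 and 8.22, with both summits within 500 bp of the start.

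Some Mediator genes carried rows of peaks. MED15, a tail subunit that binds activators, had 15 and 16 promoter peaks and MED24 had 15 and 16. MED26, the subunit that links Mediator to elongation factors, had 10 and 7, with folds of 16.0 and 9.06 for the strongest. Those MED26 peaks were different sites, with summits 100 bp before the canonical start in replicate 1 and 40698 bp after it in replicate 2. The peak over the start had 8.98 in replicate 2. MED15 had its strongest summits 11550 and 11546 bp before the canonical start, in a peak that reached KLHL22. These genes have many annotated starts (30 for MED15, 27 for MED24), and the count of starts decides how much sequence is searched.

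Toward the low end of the Mediator genes with peaks in both, MED23, a tail subunit, had 4.49 and 3.48 (percentiles 63.9 and 25.5). MED18, of the head, had 3.57 and 4.58 (37.6 and 59.9). CDK8, the kinase of the detachable module, had 4.47 and 4.60 (63.6 and 60.4), with 64 and 42 fragments and summits 150 and 93 bp before the start. MED14, the scaffold, had 5.26 and 4.22 (77.8 and 49.4). These percentiles lay below the median over all occupied protein-coding genes, which was 82.4 in replicate 1 and 77.9 in replicate 2.

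Replicate 1 alone had a promoter peak at MED4, MED7, MED10, MED17, MED28 and MED30. MED17, the central subunit of the head, had a fold of 2.44 (percentile 5.50). MED7 had 2.64 (9.41) and MED30 had 2.71 (11.5). MED10 had 3.04 (21.0), MED4 had 3.30 (29.3) and MED28 had 4.41 (62.2). MED7, MED4 and MED10 belong to the middle, in which 5 of 8 genes had peaks in both replicates. There were 6 of 7 in the head, 7 of 9 in the tail and the subunits next to it, and 3 of 3 kinase module genes of the set. CCNC, the cyclin of the kinase module, was not in the set and had a peak in replicate 1 alone. The share of genes of like GC content was 60.9% for all 28 Mediator genes and was not calculated by module. These module counts rest partly on other annotated starts. In replicate 2 all promoter peaks of MED12 and MED13 (kinase module), MED6 (head) and MED9 (middle) had summits over 5 kb from the canonical start. With canonical starts only, 18 of 28 Mediator genes had peaks in both replicates. Apart from MED28, the peaks found in replicate 1 alone were weak there and had 35 to 46 fragments, over control levels from 9.06 to 16.0. Replicate 2 had fewer peaks and fewer fragments at its summits, and their part in the missing peaks was not tested.

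Of the elongation genes, 15 of 17 had a promoter peak in both replicates (88.2%, beside 65.7% of genes of like GC content). Their strongest peaks had median percentiles of 95.5 and 96.3, beside 81.9 and 78.1 for genes of like GC content. In the top 10% were 12 of 17 in replicate 1 (70.6%, beside 29.96% of genes of like GC content) and 11 of 17 in replicate 2 (64.7%, beside 21.3%). SUPT5H, the larger subunit of DSIF, had folds of 17.2 and 12.8. Those summits lay 9503 and 9696 bp before the canonical start, in a peak that reached RPS16. The peak over the canonical start of SUPT5H itself had 13.1 and 9.60, with summits 8 bp before and 2 bp after the start. SUPT4H1, the smaller subunit of DSIF, had 12.3 and 9.89 (percentiles 98.8 and 98.1).

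The genes of factors that travel with the polymerase also ranked high. PAF1 had 15.5 and 14.5 in the peak it shares with MED29, with summits 6 bp before and 85 bp after its own start. CTR9, the scaffold of the same complex, had a single promoter peak in each replicate, with folds of 15.3 and 9.63, 64 and 26 fragments, and summits 156 and 178 bp before the start. No other protein-coding gene was reached by the CTR9 peak. ELL, which keeps the polymerase from pausing, had 16.2 and 11.5 at sites 92967 and 70738 bp after the canonical start. The first of these peaks, in replicate 1, lay beyond the 3′ end of ELL and reached ISYNA1 and SSBP4, so it cannot be given to ELL. A further peak over the canonical start of ELL, with summits 269 and 270 bp before it, had percentiles of 98.2 and 97.9. SUPT6H, a histone chaperone, had 8.68 and 9.80 (96.0 and 98.0), in a peak that also reached SDF2.

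The kinases differed among themselves. CDK9, the kinase of P-TEFb, had 8.39 and 7.16 (95.5 and 92.5), with summits 554 and 2610 bp before the canonical start. The promoter of CDK9 had the highest GC content of the 57 genes (76.1%). CCNT1, its usual cyclin, had 4.67 and 6.51 (68.1 and 88.7). CCNT2, the alternative cyclin, had 6.02 and 2.92, so its percentile was 86.1 in replicate 1 and 8.81 in replicate 2, the largest difference of the set. Both summits of CCNT2 lay at the same place, 195 and 194 bp before the start, with 123 and 41 fragments. The 7SK genes HEXIM1 (9.31 and 8.48) and LARP7 (7.09 and 6.78) both lay in the top 10% of both lists. The LARP7 peak also reached ZGRF1. Both summits of HEXIM1 were 194 bp after its start.

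NELF, which holds the paused polymerase, had peaks at 4 of 4 genes in both replicates. NELFB had 9.99 and 11.9 (97.5 and 99.1), with summits 1267 and 1145 bp before the start, in a peak that also reached STPG3. NELFA had 7.38 and 8.17 (92.9 and 95.6). NELFCD had 7.58 and 6.14 (93.6 and 85.8), and NELFE had 5.26 and 4.03 (78.0 and 43.5). The strongest NELFCD peak of replicate 2 was another site than that of replicate 1, 14499 bp after the canonical start and reaching CTSZ, while the peaks around the start there had at most 4.23 (49.8). CDK7 and CCNH, kinase and cyclin of the CDK-activating kinase, which phosphorylates the polymerase at initiation, were the only 2 elongation genes without a promoter peak in replicate 2. In replicate 1 CDK7 had a fold of 4.47 (63.4), with 28 fragments and a summit 19 bp after the start. CCNH had 2.46 (5.62), with 39 fragments and a summit 30 bp after the start, where the control level was 14.0.

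**Figure D2:**
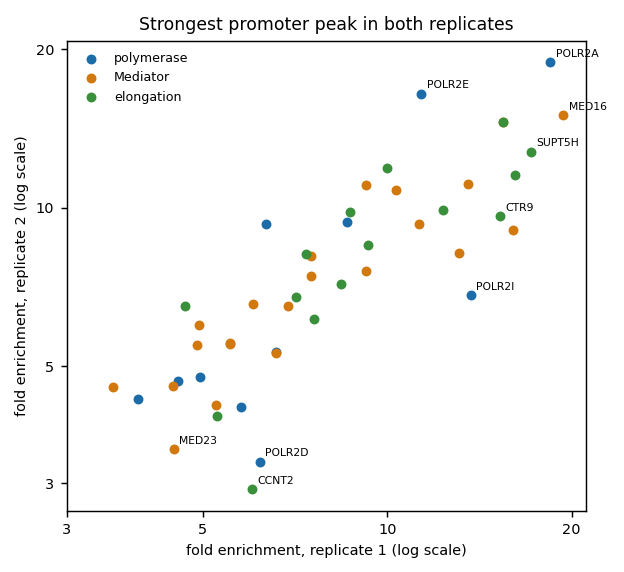
Fold enrichment of the strongest promoter peak in replicate 1 (x axis, log scale) and replicate 2 (y axis, log scale) for the 48 genes occupied in both, coloured by group. MED29 and PAF1 share 1 point because they share 1 peak, POLR2A and MED16 stand at the upper right, and POLR2D, CCNT2 and MED23 lie low in replicate 2.

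Across the 48 genes with peaks in both, Spearman's rho between the percentiles of the replicates was 0.862, beside 0.804 over 11425 protein-coding genes. This is a description over genes that share both libraries, with no p. By group, the polymerase genes had median percentiles of 88.3 and 75.9, beside 82.4 and 77.4 for genes of like GC content, so their difference was 5.85 points in replicate 1 and −1.45 in replicate 2. Mediator had 83.8 and 91.2, beside 79.6 and 75.9, the median of replicate 2 being over 22 genes and that of replicate 1 over 28. The elongation genes differed by 13.7 and 18.1 points. With 11 to 28 genes in a group and 2 replicates, the Wilson intervals of the groups' shares overlapped (64.6 to 98.5% for polymerase, 60.5 to 89.8% for Mediator, 65.7 to 96.7% for elongation).

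**Figure D3:**
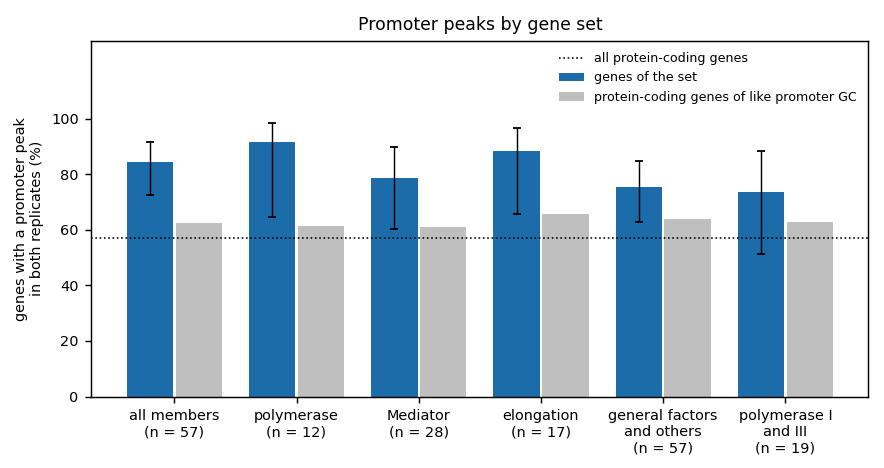
Share of genes that had a promoter peak in each replicate (y axis, %), in blue for each gene set with its 95% Wilson interval (counting error only) and in grey for protein-coding genes of like promoter GC content. The dotted line is the share over all protein-coding genes, 57.0%. All 6 blue bars are above their grey bars, and the intervals of the sets overlap.

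Most strongest peaks sat at the canonical start. Of the occupied genes, 36 of 56 (64.3%) had the summit of the strongest one within 500 bp of the canonical start in replicate 1, beside 54.3% of all occupied protein-coding genes. In replicate 2 there were 31 of 48 (64.6%), beside 45.2%. A peak lay over the canonical start itself in 54 genes in replicate 1, in 37 in replicate 2 and in 37 in both. The strongest peaks of the replicates overlapped in 36 of 48 genes. No share over all protein-coding genes was set beside the counts over the start and of overlap, so they describe these genes only. In 11 genes of replicate 1 and 12 of replicate 2 the strongest summit lay over 5 kb from the canonical start, as at MED13 (107831 and 107825 bp), MED16 and ELL, where the peak lies at another annotated start or at a neighbour. The strongest peak reached another protein-coding gene in 24 and 21 genes, and 20 of 57 (35.1%) had another protein-coding start within 3000 bp, beside 22.6% of all protein-coding genes.

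**Figure D4:**
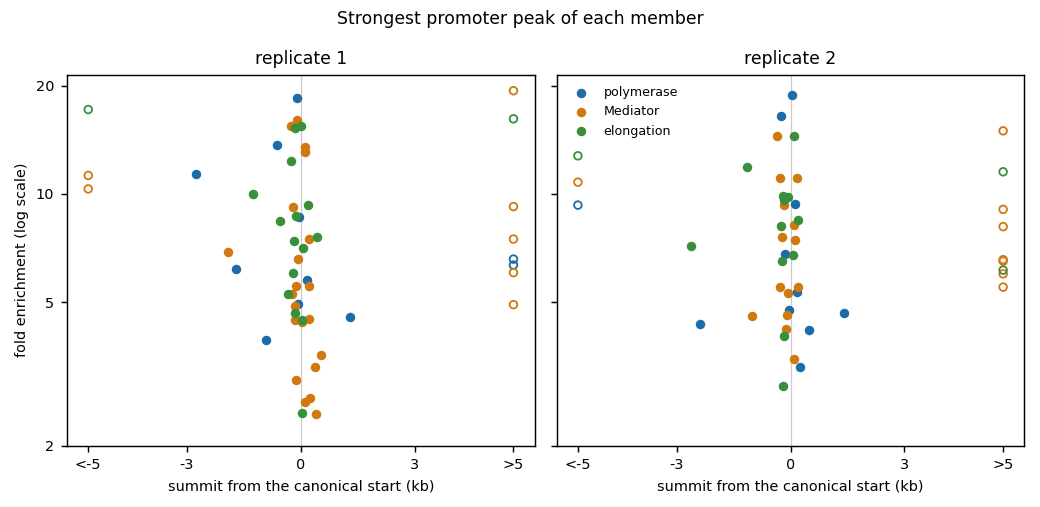
Distance of the summit of the strongest promoter peak from the canonical start (x axis, kb) and its fold enrichment (y axis, log scale), 1 point a gene, in replicate 1 (left) and replicate 2 (right). Open circles at the edges lie over 5 kb away. Points gather at the start, at folds from below 3 to above 18, and some of the highest folds, such as those of MED16 and ELL, lie beyond 5 kb.

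GC content and peaks went together among these genes as well. Peaks in both replicates were found at 8 of 13 genes with a promoter GC content of 40 to 55%, at 13 of 15 from 55 to 60%, at 14 of 16 from 60 to 65% and at 13 of 13 from 65 to 80%. The share over all protein-coding genes rose as well. It was 19.1% at a GC content of 44.6 to 48.9% and 77.1% at 75.1% and above. The 9 genes without a peak in both had a median GC content of 54.7%, and the other 48 had 60.6%. MED10 and MED4 lacked a peak in replicate 2 at 61.5% and 60.2%, so the lower GC content did not hold for each of them. Over all 57 genes the median was 60.2%, close to the 61.3% of all protein-coding genes.

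**Figure D5:**
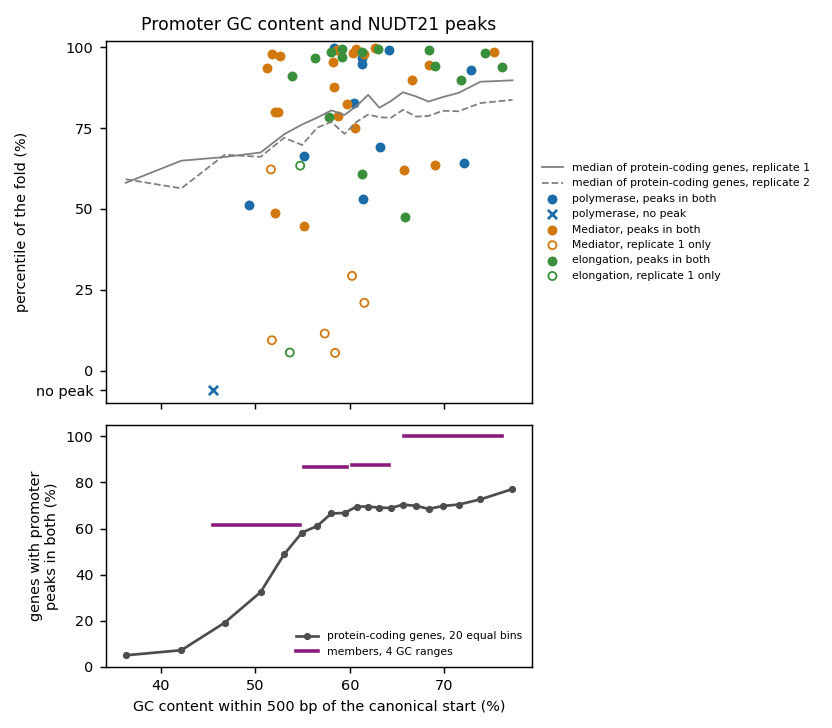
Promoter GC content within 500 bp of the canonical start (x axis, %) against the fold percentile (upper panel, the mean of the replicates for genes with peaks in both) and the share of genes occupied in both replicates (lower panel, %). Grey lines are protein-coding genes in 20 equal bins and purple bars the 57 genes in 4 GC ranges. The 4 purple bars lie above the grey line over their ranges, and the 8 open circles, genes with a peak in replicate 1 alone, lie below the grey line of replicate 1.

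Strength also followed the chromosome. On chromosome 17 lay 10 of the genes and on chromosome 19 lay 9, and all 19 had promoter peaks in both replicates, beside 81.9% of all protein-coding genes of these chromosomes. Their median percentiles were 99.0 and 98.1, beside 94.4 and 92.3, and 17 of 19 were in the top 10% of each list (89.5%), beside 55.6% and 45.5% of the protein-coding genes of these chromosomes. The other 38 genes had peaks in both at 29 (76.3%), beside 53.2% of the protein-coding genes of the other chromosomes, with median percentiles of 81.2 and 78.7, beside 78.4 and 72.6. Of the genes in the top 10%, 17 of 28 in replicate 1 and 17 of 27 in replicate 2 were therefore on these 2 chromosomes, whose protein-coding genes rank high as a whole. Without chromosomes 17 and 19 the share of genes with peaks in both still stood 18.99 points above that of genes of like GC content. This split was made after the values were seen, and the part of the chromosome in the result was not tested.

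Peaks were also counted at the 3′ end, where polyadenylation takes place. A summit within 1000 bp of the gene end was found in replicate 1 at 13 of 57 genes (22.8%), beside 20.7% of all protein-coding genes. In replicate 2 it was found at 17 (29.8%), beside 17.9%. Both replicates had one at 8 of 57 genes (14.0%), near the 12.9% of all protein-coding genes and the 14.1% of genes of like GC content. They were POLR2F, POLR2J, MED9, MED11, SUPT4H1, NELFCD, PAF1 and HEXIM1. At MED11, a gene of 2.18 kb, the end peak had folds of 6.31 and 7.93, and at POLR2J it had 4.61 and 4.38. In 7 of these 8 genes the end peaks of at least 1 replicate lay within 3000 bp of an annotated start of the same or another gene. Such peaks cannot be given to the gene end alone. POLR2J had 1 annotated start, and its promoter peaks there were not its end peaks. HEXIM1 alone had an end peak more than 3000 bp from any annotated start in both replicates, with folds of 6.93 and 4.96, beside 3.74% of all protein-coding genes that had one. Gene body peaks more than 3000 bp from any start were found in both replicates at 17 of 57 (29.8%), beside 23.5% of all protein-coding genes and 23.1% of those of like GC content.

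Short words in the promoters were counted in 300 bases, 250 before and 50 after the canonical start, on both strands. TGTA was present in 29 of 57 promoters (50.9%), and in 10016 of the 20033 protein-coding promoters. The ETS word CCGGAAG was present in 21 (36.8%), beside 14.1%, and beside 17.2% of genes of like GC content. The GC box GGGCGG was present in 45 (78.9%), beside 61.3% and 62.6%. The YY1 word AAGATGG was present in 10 (17.5%), beside 6.41%, and the NRF1 core word TGCGCA in 11 (19.3%), beside 10.8%. The CCAAT box was present in 15 (26.3%), beside 36.1%, and TATAAA in 4 (7.02%), beside 9.71%. The E-box CACGTG was present in 5 (8.77%), beside 8.76%, and the CRE word TGACGTCA in 2 (3.51%), beside 2.69%. A match describes letters and not a bound site. Peaks in both replicates were found at 17 of the 21 genes with the ETS word and at 31 of the 36 without it, with median percentiles of 85.5 and 78.6 in the former and 93.4 and 95.5 in the latter. Over all protein-coding genes the order was the other way, 72.9% with the ETS word and 54.4% without it. With TGTA 24 of 29 genes had peaks in both, and without it 24 of 28, beside 49.3% and 64.8% of all protein-coding genes. With the GC box 40 of 45 had peaks in both (88.9%) and without it 8 of 12 (66.7%), and the median GC content of these promoters was 61.2% and 53.9%. The shares over all protein-coding genes were 67.2% with the GC box and 40.9% without it.

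Other genes of the pathway, from a list of 57 general transcription factors and further Mediator and elongation genes, had promoter peaks in both replicates at 43 (75.4%, beside 63.7% of genes of like GC content). In the top 10% of peaks were 21 of them in replicate 1 (36.8%, beside 29.5% of genes of like GC content) and 16 in replicate 2 (28.1%, beside 21.1%). TFIIF was split, with folds of 15.9 and 14.5 at GTF2F1 and no promoter peak at GTF2F2. TBP, the TATA-binding protein, had 8.75 and 4.96. MNAT1, which completes the kinase of CDK7 and CCNH, had no promoter peak, so none of the CDK-activating kinase genes had one in both replicates. The cyclin CCNC, the partner of CDK8, had a fold of 1.99 in replicate 1 alone. Of 19 subunits particular to RNA polymerase I or III, 14 had promoter peaks in both (73.7%, beside 62.7%), with POLR3K the highest at 17.3 and 13.5. In both lists the difference from genes of like GC content was smaller than in the 57 genes above, 11.74 and 11.03 points against 21.82. It was larger in the marker genes, at 31.7 points for the 10 T-lineage, 27.1 for the 5 B-lineage and 31.2 for the 5 myeloid genes. A difference of this size was therefore not particular to the transcription machinery. These differences were not tested.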

How the data were processed

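Cut &Tag libraries of J.gamma1 cells with an antibody against NUDT21 were sequenced by the authors in 2 biological replicates. Per the methods of the study, reads were trimmed with fastp, aligned to hg38 with Bowtie2 2.2.5, cleared of duplicates with Picard, and each replicate was passed to MACS3 (3.0.1 in the submitters' processing notes). The deposited peak lists give the fold enrichment at the summit, a ratio, and its −log10 p-value and −log10 q-value as the authors' caller wrote them. The deposited score follows the −log10 q-value and was not used. Normalization of the libraries, any control library and the annotation used by the authors are not given in the sources used here, and depth is unknown.

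From the deposited fold and −log10 p, the fragments and control level at each summit were solved with the formulas of MACS (99.9% of peaks in replicate 1, with its pileup scaled by 0.921, and 100% in replicate 2). The solution was tested on simulated data. Peaks on chromosomes 1 to 22, X and Y were assigned to genes of GENCODE 44 (hg38) with Python 3.11.15, pandas 2.3.3 and pysam 0.24.0. Folds were ranked within each replicate, so that levels of different lists were not compared. Medians of percentiles are over genes with a promoter peak. GC content was taken within 500 bp of the Ensembl canonical start in 20 equal bins, and each gene was set beside the protein-coding genes outside the set in its bin. Motifs were searched in hg38 from 250 bases before to 50 after the canonical start. The RefSeq promoter table matched 45 of 57 genes and was not used.

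Genes named in the text were, by group, those without a promoter peak in a replicate, the 3 highest and 3 lowest by mean percentile, POLR2A, CDK9 and SUPT5H, the 3 with the largest difference between replicates and those with end peaks in both. Other names were added for their roles after the values were seen. The genes were taken by name, with no value in the rule, but they and the lists were chosen with earlier results of these data known. The Mediator and elongation subgroups, the printed promoters and the split by chromosome were set after the values were seen. No test was made, since both samples formed 1 group. Wilson intervals cover counting error only. The counts of genes with promoter peaks in both and the 2 differences from genes of like GC content were recalculated with a −log10 q minimum of 5, with the 10000 peaks of lowest p, a reach of 1000 bp, other starts, summits and each replicate alone, and the differences also with other GC windows, bins and classes. The difference in percentile was also recalculated with other strength measures. Other values have no alternative.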

Additional observations from a re-analysis of the deposited data

How the results depend on the processing

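No paired analysis was possible because there was only 1 group. Among the recalculated values, 51 stayed within their limits (1.5 times for a count, 1 SD between replicates for a difference) and 15 moved. The differences moved up under some settings and down under others, and stayed above 0 in all of them. With only the 10000 peaks of lowest p in each list, 30 genes had promoter peaks in both replicates and 10 of them were Mediator genes. In percentage points above genes of like GC content (main value 21.8), the share with peaks in both moved to 25.1 with a −log10 q minimum of 5, 26.7 with those 10000 peaks, 19.3 with canonical starts, 19.98 with starts of protein-coding transcripts, 19.4 with summits, 25.8 with GC content within 1500 bp, 19.7 with like numbers of starts, 24.8 without genes near another coding start and 18.99 without chromosomes 17 and 19. The difference of the median percentile (main value 12.9) moved to 20.1 with those 10000 peaks, 8.15 with ranks by −log10 p, 22.4 with the nearest peak and 5.90 without chromosomes 17 and 19 (5.04 in replicate 1 and 6.76 in replicate 2). Classes of like GC content and CpG ratio, and the chromosomes left out, were chosen after seeing the data. The cause of these moves was not tested. With 1 replicate left out, the count of genes with promoter peaks was 48 to 56, of polymerase genes 11 to 11, of Mediator genes 22 to 28 and of elongation genes 15 to 17. The 2 differences were then 20.9 to 22.6 and 9.61 to 16.2. With 20 fragments at the median summit of replicate 2, a gene without a peak there may have one below the limit of the caller.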
